A study of Mus musculus with 6 samples.

Results

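Replication-dependent histone genes encode the linker histone H1 and the core histones H2A, H2B, H3 and H4 that package newly copied DNA. They were taken as the rows of the deposited count table whose gene symbol begins with Hist1h, Hist2h, Hist3h or Hist4h, is H1f1, H1f2, H1f3, H1f4 or H1f5, or begins with H2ac, H2bc, H3c or H4c and a number. This gave 66 of 55401 listed genes: 5 H1, 20 H2A, 17 H2B, 12 H3 and 12 H4 genes. The rule used the symbol alone and no measured value.

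As background, most messenger RNAs end in a poly(A) tail, whereas those of replication-dependent histones end just after a short stem-loop, which is held by the stem-loop binding protein SLBP. Their synthesis and stability rise as a cell enters S phase and fall when DNA replication ends, so a tissue with few dividing cells holds little of this RNA. Variant histones such as H3.3 are made outside S phase as well, from genes with introns and poly(A) signals. Total RNA libraries keep transcripts with and without a poly(A) tail.

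Kidney endothelial cells (ECs) sorted as CD31+ CD45- came from male mice, 3 labelled RbpjΔEC and 3 Cre-negative littermates (CTRL), with 1 library per mouse. All 6 mice carried the floxed Rbpjf/f alleles and were given 5 doses of 1.5 mg tamoxifen at 8 weeks of age, and kidneys were taken 12 weeks after induction at a labelled age of 21 weeks. The RbpjΔEC mice also carried Cdh5-CreERT2, a tamoxifen-activated Cre recombinase under a promoter active in ECs, which removes the floxed part of Rbpj, the DNA-binding partner of the Notch receptors. The comparison asks which RNAs differ in adult kidney ECs after loss of canonical Notch signaling.

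The libraries held 39649171 to 47726850 counts on genes, of which 9269 to 14531 fell on the histone genes (0.0234% to 0.0331%). CTRL 1 had counts on 33764 genes and the other libraries on 25629 to 26785. The Rbpj count covers the whole gene and gives no check of the floxed part: it was 29.2 CPM in CTRL and 28.2 CPM in RbpjΔEC (log2 fold change -0.05, adjusted p = 0.793, edgeR). CPM are counts scaled to the library total and edgeR's TMM factor. The floor was set at 3 counts, or 0.0634 to 0.0749 CPM. Over all 18438 tested genes 209 passed an adjusted p of 0.05, and this number ran from 21 without RbpjΔEC 1 to 700 without CTRL 2, with 54 without CTRL 1, 24 without CTRL 3, 48 without RbpjΔEC 2 and 521 without RbpjΔEC 3.

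The stem-loop is shown because it is the sequence that sets these RNAs apart. The motif searched reads GG, any 2 letters, CTTTT, any letter, AG, any 2 letters and CC, and it was looked for on the sense strand of the GENCODE M21 transcripts (GRCm38). It occurred in 40 of the 66 genes and in 89 of all 55450 annotated genes (0.161%), or 78 of 21951 protein-coding genes (0.355%). In the 40 histone genes the motif began a median of 31 bases after the stop codon (21 to 58). Of the 26 without a match, 15 had an annotated end within 20 bases of the stop codon and 3 were pseudogenes, so the searched sequence often stopped short of the region. Among the 10 genes that were the 2 highest of their type per kilobase, 6 held the motif, and 4 further genes with an unadjusted p under 0.05 are added below, chosen after their values were seen. Capitals mark the 16 letters of the motif, read 5′ to 3′, and positions are those of the capitals.
H1f2 (chr13:23739512-23739527, + strand): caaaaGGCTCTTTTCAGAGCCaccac
H1f4 (chr13:23621782-23621797, - strand): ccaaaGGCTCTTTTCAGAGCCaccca
H2ac20 (chr3:96220418-96220433, - strand): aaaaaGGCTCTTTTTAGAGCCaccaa
H3c6 (chr13:23561903-23561918, - strand): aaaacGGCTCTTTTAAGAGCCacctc
H4c4 (chr13:23581950-23581965, + strand): ccaaaGGCCCTTTTCAGGGCCactac
H4c3 (chr13:23698089-23698104, - strand): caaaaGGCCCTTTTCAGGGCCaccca
H3c1 (chr13:23761890-23761905, - strand): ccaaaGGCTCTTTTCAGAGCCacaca
H3c15 (chr3:96238485-96238500, - strand): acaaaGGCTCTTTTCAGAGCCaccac
H4c14 (chr3:96262939-96262954, - strand): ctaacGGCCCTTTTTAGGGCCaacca
H4c9 (chr13:22040966-22040981, - strand): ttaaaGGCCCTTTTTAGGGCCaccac
The form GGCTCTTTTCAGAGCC was held by 24 genes of the H1, H2A, H2B and H3 types. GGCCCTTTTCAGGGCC occurred in 6 H4 genes, and H4c14 and H4c9 were the only members with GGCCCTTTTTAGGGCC. The other top genes of their type, H2ac15, H2bc18, H2bc4 and H3c13, had no match in the annotated transcript.

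No histone gene differed between the groups after adjustment. Of the 66 genes 45 had enough counts to be tested, and 0 of 45 reached an adjusted p of 0.05 in edgeR (quasi-likelihood F test, Benjamini-Hochberg over all 18438 tested genes), where 1.13% of all genes did (0.575% higher and 0.559% lower). Scaled by library size only, 159 genes were higher and 82 lower, beside 106 and 103 with TMM, and the median of all genes moved to 0.05, with still 0 histone genes called. DESeq2 also called 0 of the 45, against 5.12% of all genes, and its smallest adjusted p was 0.153. At an unadjusted p under 0.05, 5 of 45 histone genes were higher in RbpjΔEC (11.1%, against 8.88% of all genes) and 0 were lower (against 8.62%). These counts rested on single libraries: 1 was higher and 0 lower without CTRL 1, 1 and 1 without CTRL 3, 2 and 3 without RbpjΔEC 1, 0 and 0 without RbpjΔEC 2, 6 and 0 without CTRL 2, and 4 and 0 without RbpjΔEC 3. The log2 fold change was above 0 in 28 genes (62.2%, against 51.1% of all genes), with a median of 0.09 beside 0.01 over all tested genes. Values of single genes ran from -0.95 for H2bc15 to 0.81 for H2ac4.

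The precision differed widely between genes. The standard error of the log2 fold change had a median of 0.322 and ran from 0.108 to 0.735. For 21 of the 45 genes the 95% interval excluded a 2-fold change in either direction, whereas it included a 2-fold rise in 18 and a 2-fold fall in 9. The 21 untested genes had at most 18 counts in any library, and 3 of them, H3c14, Hist1h2ao and Hist1h2bq, had none in any library. With every gene of at least 1 count kept in the fit, 63 of the 66 were tested, and none of the genes gained by this was called. In bulk samples of sorted cells, fewer cells of a kind and less of an RNA per cell cannot be told apart.

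**Figure D1:**
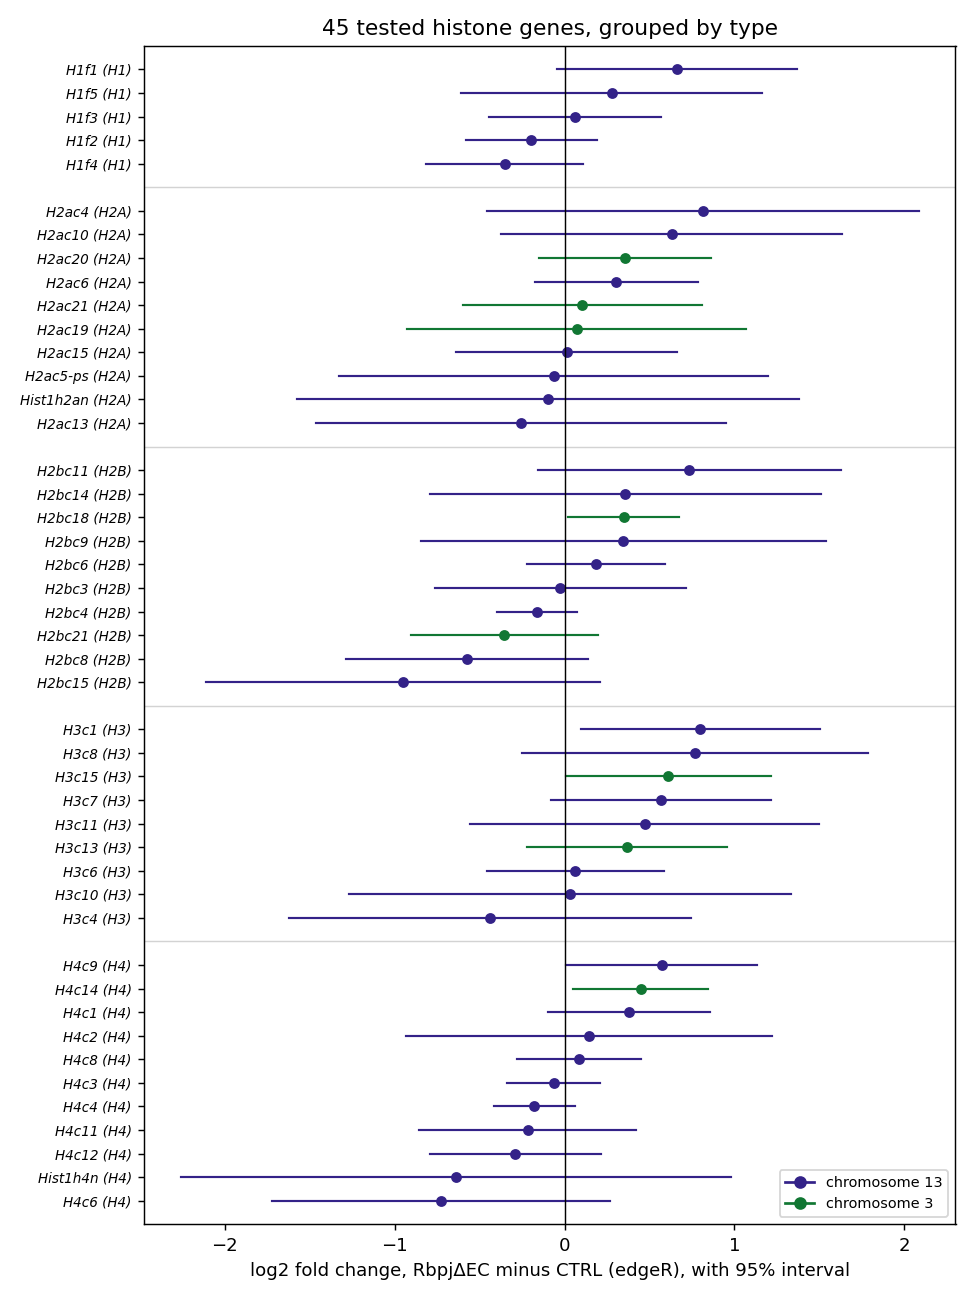
The log2 fold change (RbpjΔEC minus CTRL, edgeR, horizontal axis) of each of the 45 tested histone genes, grouped by histone type, is drawn as a point with its 95% interval, in violet for chromosome 13 and green for chromosome 3. Most intervals cross 0; those of H3c1, H3c15, H4c9, H4c14 and H2bc18 lie above it, and 8 of 9 H3 points lie above 0.

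Summed over the 66 genes, RbpjΔEC 3 had 231 CPM, against 324 and 299.8 CPM in RbpjΔEC 1 and 2 and 285 to 316 CPM in CTRL. It was the lowest RbpjΔEC library in 31 of the 45 tested genes, whereas RbpjΔEC 2 was the highest in 26. Without RbpjΔEC 3 the median log2 fold change was 0.29, with 35 of 48 tested genes above 0 and still 0 past the adjusted threshold. With each of the other libraries left out the median lay between 0.03 and 0.15. CTRL 1 was the lowest CTRL library in 24 of the 45.

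The types differed in counted level. Per kilobase of annotated exon, the summed level in CTRL was 90.4 ± 9.42 CPM per kb for H1, 86.7 ± 4.08 for H4, 41.7 ± 0.854 for H2B, 27.4 ± 2.17 for H2A and 15.8 ± 1.62 for H3 (SD, n = 3). The CTRL libraries of H1 and H4 overlapped in this order, and those of the other neighbouring types did not. H1f2 and H1f4 together took 45.8% of all histone counts, and the top 8 genes took 77.9%. The highest histone gene, H1f2, had 55.3 CPM per kb over the 6 libraries, while the variant genes H1f0 and H3f3b, which encode H1.0 and H3.3, had 109.8 and 107 CPM per kb.

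Summed over the members of a type, tested or not, the libraries of the groups overlapped for H1, H2A, H2B and H4, and no test was made of these sums. The H3 sum was 10.2, 12.99 and 10.7 CPM in CTRL 1 to 3 and 13.3, 16.9 and 13.9 CPM in RbpjΔEC 1 to 3. All RbpjΔEC libraries lay above the CTRL libraries, with CTRL 2 close to RbpjΔEC 1, and this order was the same with library size only and with DESeq2 size factors. The H3 mean was 11.3 ± 1.50 CPM in CTRL and 14.7 ± 1.93 CPM in RbpjΔEC (SD, n = 3), 30.3% higher. The H1 sum was 148, 140 and 170 CPM in CTRL and 157, 137 and 97.8 CPM in RbpjΔEC. RbpjΔEC 3 was the lowest of all libraries, and the other 2 RbpjΔEC libraries lay near the CTRL range.

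**Figure D2:**
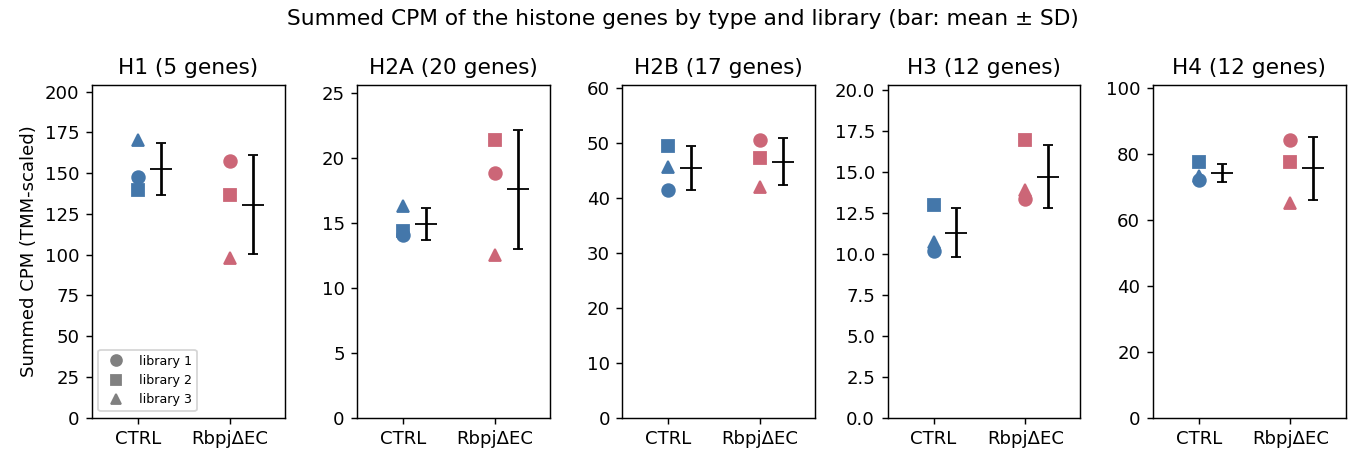
Summed CPM (vertical axes, each from 0) of the H1, H2A, H2B, H3 and H4 genes in each of the 3 CTRL (blue) and 3 RbpjΔEC (red) libraries, with the mean ± SD beside the points and the library number as the marker shape. The H3 points of the groups do not overlap (10.2 to 12.99 against 13.3 to 16.9 CPM), and RbpjΔEC 3 (triangle) is lowest of its group for H1, H2A, H2B and H4.

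The 5 genes of the linker histone H1, whose proteins bind the DNA between nucleosomes, were all tested, and 3 had a log2 fold change above 0 (median 0.06). Without RbpjΔEC 1 only 1 was above 0 (median -0.12) and without RbpjΔEC 2 there were 2 (median -0.03), while without CTRL 3 the median was 0.04 and without RbpjΔEC 3 it was 0.30. H1f2 (chromosome 13, 23738808 to 23740367, + strand) had 88.0, 83.7 and 104.8 CPM in CTRL and 96.1, 83.6 and 61.7 CPM in RbpjΔEC. RbpjΔEC 1 and 2 lay within or next to the CTRL range, and RbpjΔEC 3 lay under it. Its log2 fold change was -0.20 (SE 0.165, adjusted p = 0.589), and it was -0.04 without RbpjΔEC 3, -0.09 without CTRL 3 and -0.34 without RbpjΔEC 1.
H1f4 (chromosome 13, 23620629 to 23622558, - strand) had 53.1, 48.0 and 58.2 CPM in CTRL and 51.1, 44.1 and 29.4 CPM in RbpjΔEC. Again RbpjΔEC 3 was far under the others, and the groups overlapped (log2 fold change -0.35, SE 0.195, adjusted p = 0.403). Without RbpjΔEC 3 the value was -0.16, and without RbpjΔEC 1 it was -0.53. Its exons share 496 bases with H2bc6 and 320 bases with the predicted gene Gm11398 on the same strand, so reads there cannot be assigned to 1 gene with certainty. H1f1 had 0.873, 2.24 and 1.73 CPM in CTRL and 2.54, 2.41 and 2.75 CPM in RbpjΔEC. The RbpjΔEC libraries were the higher ones without overlap, and the log2 fold change was 0.66 (SE 0.324, adjusted p = 0.315), with 0.37 without CTRL 1, the lowest library, and 0.61 to 0.97 without each of the others. H1f5 had 0.568 to 0.782 CPM in CTRL and 0.549 to 1.23 CPM in RbpjΔEC.

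H2A and H2B pair as dimers on the outside of the nucleosome core, and their genes often stand head to head. Of the 20 H2A genes 10 were tested, 7 with a log2 fold change above 0 (median 0.09), and of the 17 H2B genes 10 were tested, 5 above 0 (median 0.08). Single libraries moved both: the H2A median was 0.36 without CTRL 3, 0.15 without RbpjΔEC 1 and 0.29 without RbpjΔEC 3, when all 10 were above 0. The H2B median was 0.01 without CTRL 1, -0.01 without CTRL 2, -0.10 without RbpjΔEC 1, and 0.12, 0.13 and 0.29 without CTRL 3, RbpjΔEC 2 and RbpjΔEC 3. H2ac20, the highest H2A gene per kilobase (11.9 CPM per kb), had 5.14, 4.86 and 6.27 CPM in CTRL and 7.99, 8.32 and 4.47 CPM in RbpjΔEC. RbpjΔEC 1 and 2 were above every CTRL library and RbpjΔEC 3 was below them all (log2 fold change 0.35, SE 0.231, adjusted p = 0.459). The value was 0.59 without RbpjΔEC 3 and 0.20 without RbpjΔEC 2. H2ac15 followed with 1.97 to 2.06 CPM in CTRL and 1.55 to 2.96 CPM in RbpjΔEC, H2ac21 with 1.25 to 1.61 and 1.07 to 2.16 CPM, and H2ac10 with 0.449 to 0.824 and 0.468 to 1.50 CPM. All 3 overlapped between the groups. Only 16.3% of the 38-base stretches of H2ac10 were its own, so its counts could be split with other H2A genes.

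H2bc18 (chromosome 3, 96269752 to 96270132, + strand) was the highest H2B gene per kilobase (17.3 CPM per kb). Its values were 6.31, 5.64 and 5.45 CPM in CTRL and 7.43, 7.56 and 7.14 CPM in RbpjΔEC. Every RbpjΔEC library was above every CTRL library, and the spread within groups was small (log2 fold change 0.35, SE 0.149, unadjusted p = 0.0385, adjusted p = 0.251). All 381 bases of its exon lie opposite Gm20628 and 226 of them are shared with Gm42743 on its own strand. H2bc4 had 12.7, 14.2 and 13.9 CPM in CTRL and 11.7, 12.6 and 12.2 CPM in RbpjΔEC, with the groups just apart in the other direction (log2 fold change -0.16, SE 0.109, adjusted p = 0.474). H2bc6 had 13.6 to 20.5 CPM in CTRL and 15.4 to 21.7 CPM in RbpjΔEC, overlapping.
H2bc15 had the lowest log2 fold change of all 45 genes, -0.95 (95% interval -2.11 to 0.21, adjusted p = 0.383, -0.60 without RbpjΔEC 1), on few counts: 0.474, 0.739 and 0.497 CPM in CTRL and 0.134, 0.429 and 0.324 CPM in RbpjΔEC. H2bc8 was also lower in each RbpjΔEC library (1.27 to 1.49 against 0.674 to 1.19 CPM, log2 fold change -0.57, adjusted p = 0.391). H2bc11 had 0.449 to 0.758 CPM in CTRL and 0.669 to 1.37 CPM in RbpjΔEC (log2 fold change 0.73, or 0.43 without RbpjΔEC 3, adjusted p = 0.378), and H2bc3 had 0.866 to 1.28 and 0.774 to 1.19 CPM. The tested H2B genes lay on both sides of 0, with 1 of 10 not overlapping on the higher side (against 11.4% of all genes) and 3 on the lower side (against 11.6%).

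The annotation holds 14 head-to-head H2A and H2B pairs, 175 to 305 bases apart, which cover 28 of the 66 genes. In 4 pairs both genes were tested, and in 1 of these the log2 fold changes had the same sign. H2ac20 and H2bc21, 238 bases apart, had log2 fold changes of 0.35 and -0.35 and levels of 11.9 and 1.78 CPM per kb. H2ac6 and H2bc4 had 0.31 and -0.16, with 1.30 and 11.1 CPM per kb. H2ac15 and H2bc15 had 0.01 and -0.95, and the pseudogene H2ac5-ps and H2bc3 had -0.06 and -0.03. Without scaling to length, H2ac20 and H2bc21 had 6.17 and 4.67 CPM and H2ac6 and H2bc4 had 3.23 and 12.9 CPM, so the gap in the first pair came mostly with the longer annotated exon of H2bc21 (2620 against 520 bases). None of the 8 genes passed the test between the groups.

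H3 and H4 form the centre of the nucleosome. Of the 12 H3 genes 9 were tested, 8 with a log2 fold change above 0, and their median was 0.47. The median was 0.16 without RbpjΔEC 2 and between 0.42 and 0.61 with each other library left out, and the number above 0 was 6 without RbpjΔEC 2 or CTRL 1, 7 without RbpjΔEC 1 and 8 without each of the others. H3c1 (chromosome 13, 23761853 to 23762386, - strand) had the smallest p of all 45 genes. Its values were 0.948, 1.16 and 0.8998 CPM in CTRL and 2.19, 1.86 and 1.198 CPM in RbpjΔEC, so that the groups did not overlap although RbpjΔEC 3 lay next to CTRL 2. The log2 fold change was 0.80 (SE 0.322, 95% interval 0.10 to 1.50, unadjusted p = 0.0290, adjusted p = 0.228).
H3c15 (chromosome 3, 96238108 to 96239127, - strand) had 1.25, 2.05 and 1.63 CPM in CTRL and 2.05, 2.86 and 2.65 CPM in RbpjΔEC. RbpjΔEC 1 and CTRL 2 were nearly equal (log2 fold change 0.61, SE 0.277, adjusted p = 0.279). H3c7 had 1.17 to 1.92 CPM in CTRL and 1.85 to 2.72 CPM in RbpjΔEC (log2 fold change 0.57, adjusted p = 0.348). The genes with the highest level per kilobase, H3c13 and H3c6, had log2 fold changes of 0.37 (0.16 without RbpjΔEC 2) and 0.06, and H3c4 was the single tested H3 gene below 0 (-0.44, 95% interval -1.62 to 0.74). H3 genes share much sequence: 19.7% of the 38-base stretches of H3c13, 19.3% of H3c6, 44.5% of H3c1, 36.0% of H3c15 and 47.2% of H3c7 were found in no other gene's transcripts, genes with overlapping exons aside. The H3 genes may therefore not be independent measurements, which was not tested, and all of H3c13 lies opposite Gm20628.

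Of the 12 H4 genes 11 were tested, 5 above 0, with a median of -0.06 that ran from -0.12 without CTRL 3 to 0.00195 without RbpjΔEC 3. H4c4 (chromosome 13, 23581598 to 23582735, + strand) was the second highest histone gene per kilobase (27.8 CPM per kb). It had 34.0, 31.7 and 35.1 CPM in CTRL and 34.2, 29.5 and 25.3 CPM in RbpjΔEC, overlapping between the groups, and its log2 fold change was -0.18 (SE 0.108, adjusted p = 0.426), or -0.07 without RbpjΔEC 3 and -0.29 without RbpjΔEC 1. H4c3 and H4c8 had the log2 fold changes nearest 0 among the named H4 genes. H4c3 had 9.97 to 11.4 and 9.38 to 11.1 CPM (log2 fold change -0.06, 95% interval -0.34 to 0.21), and H4c8 had 5.21 to 6.51 and 5.61 to 6.71 CPM (0.09, 95% interval -0.28 to 0.45, and 0.17 without CTRL 2, 0.14 without RbpjΔEC 3 and 0.01 without CTRL 3 or RbpjΔEC 1). For both the interval excludes a 2-fold change.
H4c14 (chromosome 3, 96261682 to 96263311, - strand) had 12.0, 15.7 and 10.3 CPM in CTRL and 20.4, 17.8 and 13.8 CPM in RbpjΔEC. RbpjΔEC 3 lay inside the CTRL range and the other RbpjΔEC libraries above it (log2 fold change 0.45, SE 0.180, unadjusted p = 0.0319, adjusted p = 0.237). With all genes of at least 1 count in the fit, H4c14 and H1f4 were called, H4c14 higher and H1f4 lower. They were 2 of the 63 histone genes in that fit, where 1436 of 38324 genes were called (3.75%), a share near that of the histone genes. H4c9 had 1.50, 1.46 and 2.01 CPM in CTRL and 2.25, 2.38 and 2.75 CPM in RbpjΔEC, without overlap (log2 fold change 0.57, SE 0.258, adjusted p = 0.278). H4c14 and H4c9 are the members with the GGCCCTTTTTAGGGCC stem-loop printed above. They were also the H4 genes with an unadjusted p under 0.05 (18.2% of the 11 tested, both higher, against 8.88% of all genes). This overlap was picked out after the values were seen, and a link of the motif to the change was not tested. On the other side, H4c12 and H4c6 were lower in every RbpjΔEC library (log2 fold changes -0.29 and -0.73), neither past the threshold.

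**Figure D3:**
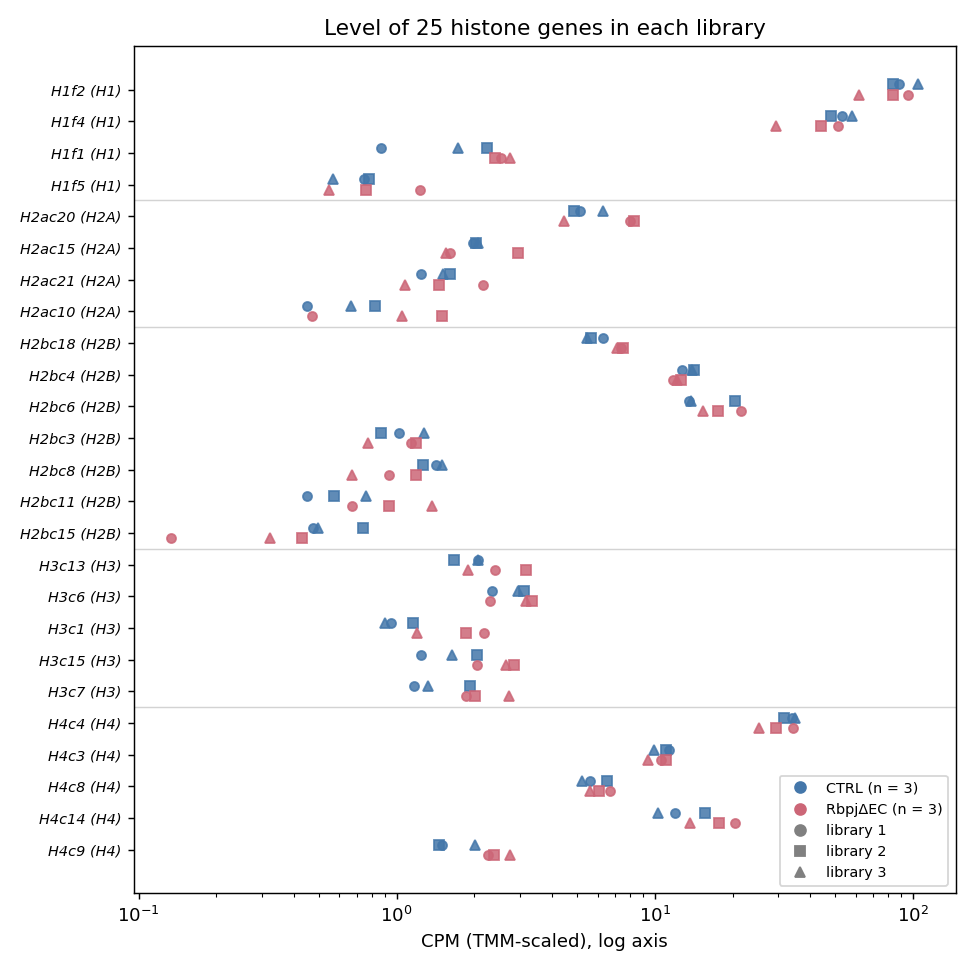
CPM on a log axis in each of the 6 libraries (CTRL blue, RbpjΔEC red, marker shape for the library number) of the 25 histone genes named by level or by p, ordered by type and by level per kilobase. The groups overlap for most genes; H1f1, H2bc18, H3c1, H3c15 and H4c9 lie higher in all RbpjΔEC libraries, and H2bc4, H2bc8 and H2bc15 lower.

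In all, 5 of the 45 tested genes had all RbpjΔEC libraries above all CTRL libraries (11.1%, against 11.4% of all tested genes) and 5 had them all below (11.1%, against 11.6%). Both shares were near the background.

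By position, 56 of the 66 genes are on chromosome 13 and 10 on chromosome 3. Of the 8 tested genes on chromosome 3, 7 had a log2 fold change above 0 with a median of 0.35, and of the 37 on chromosome 13, 21 did with a median of 0.06. The chromosome 3 median lay between 0.18 and 0.45 with any library left out, and that of chromosome 13 between -0.04 and 0.25, below 0 without CTRL 1, RbpjΔEC 1 or RbpjΔEC 2. H2bc18, H3c15 and H4c14 of the 5 genes with an unadjusted p under 0.05 are on chromosome 3. The grouping by chromosome was made after the values were seen, and the difference between the chromosomes was not tested.

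The repeated sequence of this family bears on its counts. Over the 66 genes a median of 44.96% of the 38-base stretches, the length of the reads, occurred in no other gene's transcripts, genes with overlapping exons aside. Stretches shared with an overlapping gene thus count as distinct: H1f4 is 90.5% distinct, although 33.7% of its stretches are shared with another member. The H1 genes were the most distinct (median 97.1%) and the H2A genes the least (21.9%). The 14 genes with at least 75% distinct stretches had a median of 3.33 CPM per kb, the 30 genes with 25% to 75% had 1.15, and the 22 genes below had 0.414. Across the 66 genes, Spearman's rho between the distinct share and CPM per kb was 0.470, given as a description since the genes share libraries and sequence. Among the 45 tested genes the distinct share and the log2 fold change had a rho of -0.0072. The median log2 fold change was 0.09 in the 23 tested genes with at least 50% distinct stretches and 0.11 in the other 22. H2ac19, with 0% distinct stretches, and H2ac18 are near-identical copies: H2ac19 had 0.374 to 0.758 CPM over the 6 libraries and H2ac18 at most 0.148 CPM. H3c14, with no count, lies wholly inside exons of Gm20634 on the same strand. Exons of 26 of the 66 genes overlap another annotated gene.

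**Figure D4:**
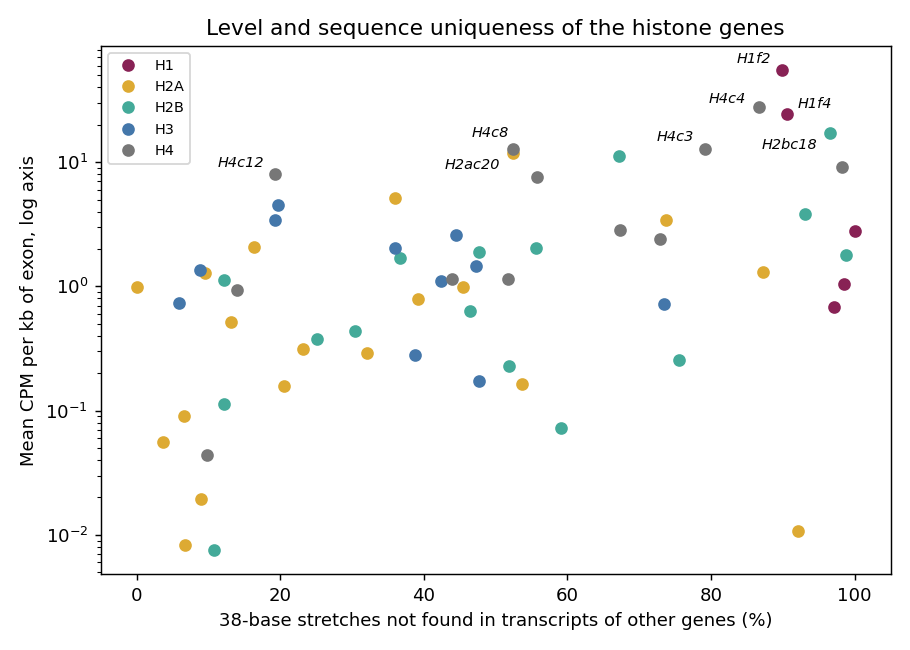
Mean CPM per kb of exon over the 6 libraries (vertical log axis) against the percent of 38-base stretches found in no transcript of another gene, genes with overlapping exons aside (horizontal axis), for the 63 histone genes with a count, coloured by type. The 3 genes at 0 are left out. H1f2, H4c4 and H1f4 at the upper right are the highest and among the most distinct genes, while genes under 25% reach at most 7.98 CPM per kb.

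Levels per kilobase differed with the annotated end. In 16 of the 40 genes with the motif, the annotation runs at least 200 bases past the stem-loop, as in H1f2 (840 bases), H1f4 (1153), H4c4 (770) and H4c14 (1257). The median level was 2.61 CPM per kb in these 16 genes, where 15 passed the filter for testing, and 0.534 CPM per kb in the 24 genes that end sooner, where 12 passed it. The 4 genes named here also had 89.9%, 90.5%, 86.6% and 98.2% distinct stretches, in that order. The part of the annotated end and of the distinct share in the level was not tested. Counts per gene do not show where in the gene the reads lay.

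Genes that act on histone RNA and protein were grouped in lists by known function. Of 17 tested genes of histone messenger RNA processing, 2 rose and 0 fell in edgeR (against 0.575% and 0.559% of all genes), and the median log2 fold change was -0.02. DESeq2 called 2 higher and 1 lower (against 5.12% of all genes in either direction). The lower one, named after its values were seen, was Ncbp2 of the nuclear cap-binding complex, with a log2 fold change of -0.40 (adjusted p = 0.0894 in edgeR and 0.0304 in DESeq2). Slbp, the stem-loop binding protein, had 49.3, 50.2 and 50.7 CPM in CTRL and 59.6, 70.2 and 64.3 CPM in RbpjΔEC. All RbpjΔEC libraries were above all CTRL libraries, and Slbp rose by a log2 fold change of 0.37 (SE 0.0783, adjusted p = 0.0471, edgeR). Srsf2, a splicing factor, had 151, 196 and 172 CPM in CTRL and 246, 273 and 248 CPM in RbpjΔEC (log2 fold change 0.56, SE 0.0927, adjusted p = 0.0197). The most abundant gene of the list, Upf1, a helicase of RNA decay, had 190 ± 9.52 and 199 ± 12.6 CPM (SD, n = 3, log2 fold change 0.07, adjusted p = 0.659).
Of 17 tested histone chaperones, 1 rose and 0 fell in edgeR (against 0.575% and 0.559% of all genes), with a median of -0.05. DESeq2 also called 1 higher and 0 lower (against 5.12% of all genes in either direction). The risen gene in both was Nasp, which binds H3 and H4 before their assembly. It had 31.0, 34.8 and 29.8 CPM in CTRL and 42.8, 42.1 and 51.3 CPM in RbpjΔEC (log2 fold change 0.51, SE 0.0992, adjusted p = 0.0377, edgeR). The most abundant chaperone genes, Atrx and Ubn1, had log2 fold changes of 0.01 and 0.04. Of 31 tested genes of S phase and replication, 2 rose and 0 fell in edgeR (against 0.575% and 0.559% of all genes). Of the 31, 21 were above 0 (against 51.1% of all genes), with a median of 0.18. DESeq2 called 3 higher and 0 lower (against 5.12% of all genes in either direction). The further one, named after its values were seen, was the cyclin gene Ccna2 at 0.497 to 0.718 CPM in CTRL and 1.02 to 1.95 CPM in RbpjΔEC (log2 fold change 1.33, adjusted p = 0.1004 in edgeR and 0.0425 in DESeq2). Pcna, the sliding clamp of DNA polymerases, had 44.2, 59.8 and 45.4 CPM in CTRL and 72.6, 78.8 and 73.8 CPM in RbpjΔEC (log2 fold change 0.59, SE 0.109, adjusted p = 0.0362). Cdk2, a kinase of S phase entry, had 20.4, 21.7 and 21.7 CPM in CTRL and 34.7, 33.4 and 28.7 CPM in RbpjΔEC (0.60, SE 0.0958, adjusted p = 0.0157). The groups did not overlap in either gene. Mcm3, a subunit of the replicative helicase and the most abundant gene of the list, had 82.4 ± 2.76 and 71.7 ± 6.58 CPM (SD, n = 3), with every RbpjΔEC library below every CTRL library (log2 fold change -0.20, adjusted p = 0.219).
Slbp, Srsf2, Nasp, Pcna and Cdk2 each lost the call without CTRL 1, CTRL 3, RbpjΔEC 1 or RbpjΔEC 2, when the counts over all genes also fell, and kept a log2 fold change of at least 0.31. Slbp also lost it with the replicate number as a block in the fit.

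Of 19 tested mitosis genes 0 passed by edgeR or DESeq2 and 2 were higher at an unadjusted p under 0.05 (against 8.88% of all genes), with 15 above 0 (against 51.1%) and a median of 0.59. Mki67, a marker of cycling cells, had 7.91, 2.66 and 4.10 CPM in CTRL and 5.11, 13.1 and 7.24 CPM in RbpjΔEC, with the groups overlapping widely (log2 fold change 0.80, adjusted p = 0.487). Bub1b, a checkpoint kinase, had a log2 fold change of -0.01. Of 12 tested replication-independent histone variants 0 passed by either tool, 5 were higher at an unadjusted p under 0.05 (against 8.88% of all genes), 7 were above 0 and the median was 0.14. These 5, named after their values were seen, were H3f3a, H2az1, H2ax, H3f4 and Macroh2a1, with log2 fold changes of 0.25, 0.28, 0.35, 1.37 and 0.18. In each of them every RbpjΔEC library was above every CTRL library (against 11.4% of all genes). The most abundant variant genes overlapped between the groups. H3f3b had 307 ± 33.7 CPM in CTRL and 330.3 ± 41.2 CPM in RbpjΔEC, and H1f0 had 245 ± 44.4 and 206 ± 27.9 CPM (SD, n = 3; adjusted p = 0.642 and 0.421). Of 14 tested other RNAs without poly(A), 0 passed by either tool, 2 lay above and 1 lay below 0 with an unadjusted p under 0.05 (against 8.88% and 8.62% of all genes), and the median was 0.12. Rn7sk had 2576 ± 388 and 3173 ± 212 CPM (SD, n = 3, log2 fold change 0.30, adjusted p = 0.177), and Rpph1 had a log2 fold change of -0.15 (adjusted p = 0.830).

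**Figure D5:**
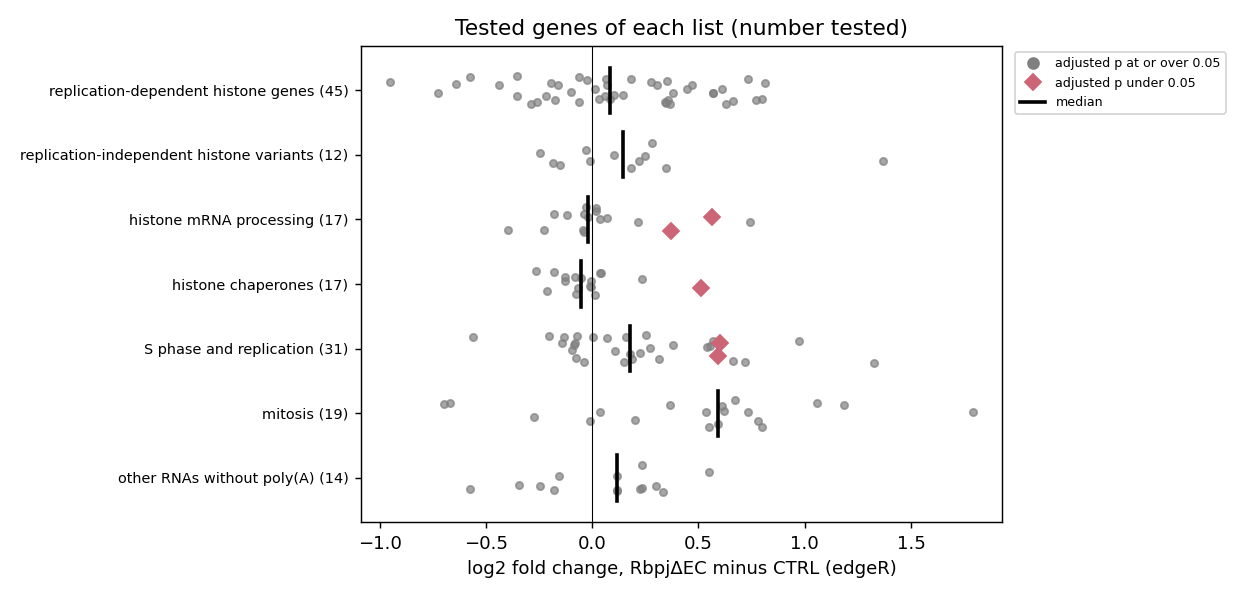
Log2 fold changes (RbpjΔEC minus CTRL, edgeR, horizontal axis) of the tested genes of each list, with the number tested in brackets, the median as a black bar and genes past an adjusted p of 0.05 as red diamonds. The diamonds are Slbp, Srsf2, Nasp, Pcna and Cdk2, and the histone genes have none.

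Markers of other cells also differed between the libraries. The summed level of the 8 endothelial markers was 20392 to 22445 CPM in CTRL and 18376 to 18679 CPM in RbpjΔEC, 0 of 8 past the threshold in edgeR (at an unadjusted p under 0.05, 1 was higher and 4 were lower, against 8.88% and 8.62% of all genes, and 4 lower by DESeq2, which called 5.12% of all genes in either direction). Mural markers summed to 73.5 to 91.8 and 30.2 to 47.2 CPM, and Acta2, Myh11 and Rgs5 of 6 fell in edgeR (log2 fold changes -1.30, -1.08 and -0.88), where 0.559% of all genes did. DESeq2 called 5 of the 6 lower, Pdgfrb (-1.37) and Cspg4 (-0.98) also, and the groups did not overlap in these 5 (against 11.6% of all genes on the lower side). Without RbpjΔEC 1 or CTRL 1 none of these 3 was called, nor Acta2 and Myh11 without CTRL 3, nor Rgs5 without CTRL 2 or RbpjΔEC 2. With only genes of at least 1 CPM in 3 libraries in the fit, Rgs5 and Myh11 were not called, nor was Rgs5 when scaled by library size only. Over the 12 alternatives the log2 fold change ran from -1.55 to -1.05 for Acta2, -1.20 to -0.88 for Myh11 and -1.05 to -0.69 for Rgs5. Macrophage markers summed to 14.2 to 14.6 and 23.6 to 27.8 CPM, where Cd68 rose (1.27) and 3 of 4 tested genes lay below 0, among them Csf1r (-1.57, adjusted p = 0.134 in edgeR and 0.0238 in DESeq2). The Cd68 call was lost without CTRL 3, RbpjΔEC 1 or RbpjΔEC 2, while its log2 fold change ran from 1.06 to 1.44 over the 12 alternatives. Of 6 tested tubule and 4 podocyte markers 0 passed in edgeR, 1 of each was lower by DESeq2, and 2 and 1 were lower at an unadjusted p under 0.05. Tubule markers summed to 268 to 410 CPM in CTRL and to 148, 95.7 and 360 CPM in RbpjΔEC 1 to 3, so that RbpjΔEC 3, the library with the lowest histone sum, was the highest of its group. The proximal tubule genes Lrp2 and Slc34a1 had log2 fold changes of 1.27 and 1.28, with 129 and 73.5 CPM in RbpjΔEC 3, and the other 4 tubule markers were below 0, none past the edgeR threshold. Podocyte markers, nearly all of them Podxl, which ECs also express, summed to 2989 to 3384 and from 2405 to 2682 CPM.
T cell markers summed to at most 0.349 CPM, near the floor, with Cd3d and Cd3e at 0 in all 6 libraries. Ptprc, a marker of leukocytes, had 1.16 to 3.92 CPM in CTRL and 0.535 to 1.597 CPM in RbpjΔEC (log2 fold change -1.44, adjusted p = 0.188 in edgeR and 0.0480 in DESeq2). The part of the mural, tubule, podocyte and macrophage markers in the histone values was not tested.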

How the data were processed

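RNA of sorted kidney ECs from 3 CTRL and 3 RbpjΔEC mice was analysed, grouped by the sample titles. The deposited values are whole-number counts per gene, without normalization. The authors trimmed with Trim Galore 0.6.4, aligned with STAR 2.6.1d to GRCm38.p6 and counted with featureCounts (Subread 1.6.4) on GENCODE M25, per the methods and the submitters' processing notes. Libraries were stranded, read with 38 bases from each end and pooled in 1 run. Strand and multi-mapping settings of the counting are not given in the sources used here. Under them, reads shared by histone copies can be dropped or assigned to 1 copy.

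The counts were analysed in R 4.3.3 with edgeR 4.0.16 (filterByExpr, TMM, robust quasi-likelihood fit, Benjamini-Hochberg over all tested genes, threshold 0.05) and, as an alternative, DESeq2 1.42.0. The fit was tested on simulated data. Summaries used Python 3.11.15. Positions, exon lengths, transcripts and motif matches were taken from the GENCODE M21 release (GRCm38), where all 66 genes were found; lengths can differ from M25. Distinct 38-base stretches were compared with M21 transcripts on both strands, not with the genome, and genes whose exons overlap the member were not counted as other genes, a change made after seeing the first values.

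Named genes were the 4 highest members of each type by CPM per kb, the 10 tested members with the smallest p, any member past the threshold, and for other lists the genes past the threshold and the 2 with the highest CPM. The members and lists were chosen with earlier results of these data known. Alternatives covered normalization, filter, test, replicate block and each library left out. P-values rest on the spread between mice.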

Additional observations from a re-analysis of the deposited data

How the results depend on the processing

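Of the histone genes, 0 passed the threshold in each alternative but 1: with every gene of at least 1 count in the fit, 2 of 63 passed (H1f4 and H4c14) among 1436 of 38324 genes (3.75%); the cause was not tested. Over all genes DESeq2 called 944, and leaving out each library in turn gave 21 to 700. The median log2 fold change of the tested histone genes ran from 0.027 to 0.29 with a library left out, the highest without RbpjΔEC 3, and the count at an unadjusted p under 0.05, in either direction, ran from 0 to 6. With the 5 genes of older symbols added after seeing the data, all 5 tested, this count was 8, all higher. It was 5 of 45 without them (11.1%, against 8.88% of all genes), so H4f16, H2aw and H1f6 raised the share. With the added genes the median was 0.16 and the H2A and H4 log2 ratios of summed levels were 0.39 and 0.13. The replicate numbers rest on the labels alone and did not pair the libraries (correlations of same-numbered deviations 0.023, 0.009 and 0.005). The replicate block gave 0 histone genes and 344 genes in all, H2ac15 had -0.045 under it, and Slbp lost its call. H2bc3 had 0.018 with library size only. Some genes near 0 changed sign when a library was left out: H1f5 ran from -0.092 to 0.51, H2ac15 from -0.36 to 0.17, H2ac21 from -0.20 to 0.31, H2bc3 from -0.16 to 0.14, H3c6 from -0.052 to 0.21 and H4c3 from -0.12 to 0.0020. None of the 25 named genes otherwise changed sign in the 12 alternatives. Each log2 ratio of the summed levels moved by less than that sum's own SD between libraries (log2, pooled within groups). With 3 libraries a group, leaving 1 out can hardly move a ratio by more than this SD, so it does not measure stability. The sign of the H2B, H4 and overall ratios, all near 0, was not fixed. With 3 mice a group the 95% interval excluded a 2-fold change in 21 of the 45 tested histone genes.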

Other observations

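Symbols changed between annotation releases, and 5 listed genes carry an older symbol of the Hist family that the table's symbol no longer shows. They were looked at after their values were seen. H4f16 (formerly Hist4h4) had 9.18, 14.2 and 15.6 CPM in CTRL and 18.2, 24.1 and 17.97 CPM in RbpjΔEC, without overlap (log2 fold change 0.63, SE 0.199, unadjusted p = 0.0122, adjusted p = 0.157, edgeR). H2aw (formerly Hist3h2a) had 18.3, 29.6 and 21.0 CPM in CTRL and 30.6, 35.04 and 30.02 CPM in RbpjΔEC, with CTRL 2 just under the lowest RbpjΔEC library (0.47, SE 0.163, adjusted p = 0.182). H1f6 (formerly Hist1h1t), a linker histone of the testis, had 0.308 to 0.760 CPM in CTRL and 0.749 to 1.78 CPM in RbpjΔEC (1.19, SE 0.443, adjusted p = 0.191). H2bu2 and H2bu1-ps had log2 fold changes of 0.26 and 0.65. H4f16 alone had an adjusted p under 0.05 in DESeq2 (0.0265). With these 5 the family has 71 genes, and 0 pass the edgeR threshold.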
